A study of Mus musculus with 21 samples.

Results

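Telomerase and the shelterin complex were examined through 10 genes, chosen by symbol, of the 20872 measured by RNA sequencing in aortic valves of mice that lack the telomerase RNA. Tert encodes the catalytic subunit of telomerase. Dkc1, Nop10 and Nhp2 encode proteins of its H/ACA core, which binds and stabilises the telomerase RNA and also serves small nucleolar RNAs. Terf1, Terf2, Pot1a, Tinf2 and Acd encode shelterin proteins, which coat telomeric DNA, and Rtel1 encodes a helicase that unwinds telomere loops. All 10 were found in the table, and 9 of them reached the mean level of 1 FPKM (fragments per unit of gene length and of sequencing depth) required for the test. Tert did not.

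Telomerase copies a short template in its RNA, Terc, onto chromosome ends, and without Terc the ends shorten from one generation to the next. Shelterin binds the repeats through Terf1 and Terf2 and the single-stranded tip through the Pot1 proteins, with Tinf2 and Acd as bridges, and hides the end from the DNA damage response. Tert is silent or low in most adult tissue, whereas the H/ACA core and shelterin genes are broadly expressed. The stretch of Terc that holds its template is shown first because every mouse of the study lacks this gene. These are the first 60 of the 423 bases of mouse Terc on chromosome 3 in the GENCODE annotation of GRCm38, with the template in capitals. Terc is not among the 20872 genes measured, so the loss of its RNA could not be checked here.

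Terc: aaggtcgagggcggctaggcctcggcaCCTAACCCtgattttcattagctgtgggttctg

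The study asked what XCT790, an inverse agonist of the nuclear receptor ERRα, does in valves of mice with a single working copy of Notch1, which encodes a receptor on the cell surface. All mice were of genotype Terc-/-, generation 2, and whole aortic valves were lysed directly, so each library mixes the cell types of the valve. The groups were N1+/- mice with aortic valve stenosis given XCT790 (N1het stenosis XCT790, n = 3), N1+/- mice with stenosis given control solvent (N1het stenosis, n = 3), N1+/- mice with healthy valves given XCT790 (N1het healthy XCT790, n = 5), N1+/- mice with healthy valves given solvent (N1het healthy, n = 6), and N1+/+ mice with healthy valves given solvent (WT, n = 4). Injections were daily into the peritoneum for 4 weeks from 4 weeks of age, with XCT790 at 5 mg/kg/day. Stenosis is a narrowing of the valve opening. No group has an intact Terc, so the table offers no telomerase-competent valve for comparison.

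The libraries held 8.42 to 27.3 megareads (M) recovered, 13.7 M at the median. The 6 deepest libraries, with at least 17.7 M reads, were taken as a set by a cut at 16 M reads. The other 15 held at most 15.5 M. Depth has no wide break at this cut, and steps of like size lie within the 6. The other 15 had a larger share of reads on the mitochondrial genes listed (0.851% to 8.40%, against 0.0580% to 0.521%). The 6 are N1het stenosis XCT790 2, N1het healthy XCT790 1 and 2, N1het healthy 1 and 4, and WT 1, and none is from N1het stenosis. In 6 libraries the label field for the agent contradicts the title: N1het stenosis 1 to 3 carry XCT790 there, and N1het healthy XCT790 1 to 3 carry solvent. Groups follow the titles. Notch1 RNA averaged 35.6 ± 9.37 FPKM in N1het healthy and 33.9 ± 8.93 FPKM in WT valves (SD, n = 6 and 4), a log2 difference of 0.06 ± 0.25 (SE; limma adjusted p = 0.972), and the table does not tell the alleles apart. Dcn, a matrix proteoglycan and valve interstitial marker, was at 2580 FPKM or more in every library. Interstitial markers, all 7 listed, summed to 3955 to 4924 FPKM in N1het stenosis XCT790 and 3747 to 4560 FPKM in N1het stenosis. These sums were 5564 to 7017 FPKM in N1het healthy XCT790, 4945 to 8196 FPKM in N1het healthy and 4820.5 to 6100.5 FPKM in WT valves. Summed leukocyte markers were 1540.3 to 6315 FPKM in N1het stenosis XCT790 and 2949 to 5231 FPKM in N1het stenosis. They were 917 to 2762 FPKM in N1het healthy XCT790, 766 to 1800 FPKM in N1het healthy and 987 to 1725 FPKM in WT valves. All 8 leukocyte markers used were listed, with the T cell marker Cd3e at 0 in 13 of 21 libraries. Heart muscle markers, all 8 listed, summed to 68.6 FPKM at the least and 3932 FPKM at the most within N1het valves, and to 35.1 to 2485 FPKM in WT valves.

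The 10 genes spanned a wide range of levels, and FPKM is scaled by length, so the levels can be set in order. Nop10, a small scaffold protein of the H/ACA core, was the highest at a mean of 58.3 FPKM over the 21 libraries, above 94.8% of all genes. Nhp2, which binds the RNA of H/ACA particles, followed at 19.4 FPKM, and Acd, the protein TPP1 that recruits telomerase to shelterin, at 15.6 FPKM. Terf1 and Terf2, the proteins that bind double-stranded repeats, averaged 10.5 and 9.77 FPKM. Dkc1, the pseudouridine synthase dyskerin, averaged 9.56 FPKM, and Tinf2, which links Terf1, Terf2 and Acd, 6.81 FPKM. Pot1a, which covers single-stranded repeats, averaged 3.96 FPKM, the helicase gene Rtel1 2.15 FPKM and Tert 0.273 FPKM. The median gene of the table has a mean of 4.08 FPKM, so 7 of the 10 lay above it.

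Neighbours in this order were compared within libraries by a two-sided paired permutation test with 100000 random sign flips, adjusted over the 9 neighbour pairs. The test asks whether the mean log2 difference is 0, and in 5 pairs it was above 0 at an adjusted p under 0.05. For Acd over Terf1 this difference was 0.53, for Tinf2 over Pot1a 0.60 and for Pot1a over Rtel1 0.67. Their SDs over libraries were 0.79, 0.83 and 0.67. Nop10 exceeded Nhp2 in 20 of 21 libraries (adjusted p = 9e-05). Acd exceeded Terf1 in 17 (adjusted p = 0.0103), Tinf2 exceeded Pot1a in 15 (adjusted p = 0.00785), Pot1a exceeded Rtel1 in 18 (adjusted p = 0.00081) and Rtel1 exceeded Tert in 20 (adjusted p = 9e-05, which for the last pair is the smallest that this number of flips can give). The order of Nhp2 and Acd, of Terf1 and Terf2, of Terf2 and Dkc1, and of Dkc1 and Tinf2 was not separated by this test (adjusted p = 0.235 to 0.776). In the GENCODE annotation, exons of Gmpr2 overlap 31.2% of the Tinf2 exons and those of Carmil2 33.3% of the Acd exons. The part of such shared reads in this order was not tested.

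**Figure D1:**
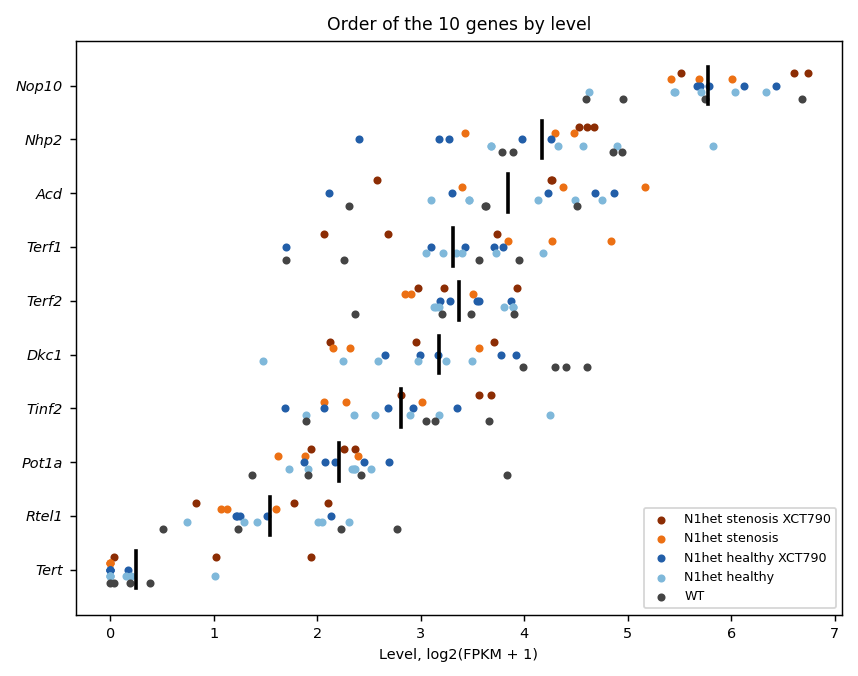
Level of each gene as log2(FPKM + 1) on the horizontal axis, with 1 point per library coloured by group and a black bar at the mean of the 21 libraries; genes run down the page by mean FPKM. Nop10 stands apart at the top and Tert at the bottom, and the points of Terf1, Terf2 and Dkc1 overlap.

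Levels also varied between libraries. The SD of log2(FPKM + 1) over the 21 libraries was 0.687 for the median gene of all 14966 tested. Terf2 was steadier at 0.423, with levels of 4.14 to 14.3 FPKM. Pot1a at 0.498, Rtel1 at 0.585 and Nop10 at 0.603 also lay below the median gene. Acd at 0.849, Dkc1 at 0.847, Terf1 at 0.833 and Nhp2 at 0.755 spread more. The added 1 narrows this SD at low levels. The SD of FPKM as a share of the mean was 62.5% for Rtel1 and 59.3% for Pot1a. It was 54.8% to 62.8% for Acd, Nhp2, Terf1 and Dkc1, 41.0% for Nop10 and 30.8% for Terf2. WT 1 was the highest library for Dkc1, Pot1a and Rtel1, and for 9 of the 47 telomere genes examined in all. It was also the lowest for Nop10 and, in the wider list, for others such as Nhp2l1 and Ercc4. WT 1 was the library least like the rest over all tested genes (mean Pearson's r 0.768). The share of all genes at their highest in WT 1 was not computed. In Pot1a it stood alone with 13.3 FPKM, against 1.59 to 4.36 FPKM in WT 2 to 4 and 2.07 to 5.45 FPKM in the 17 N1het libraries.

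**Figure D2:**
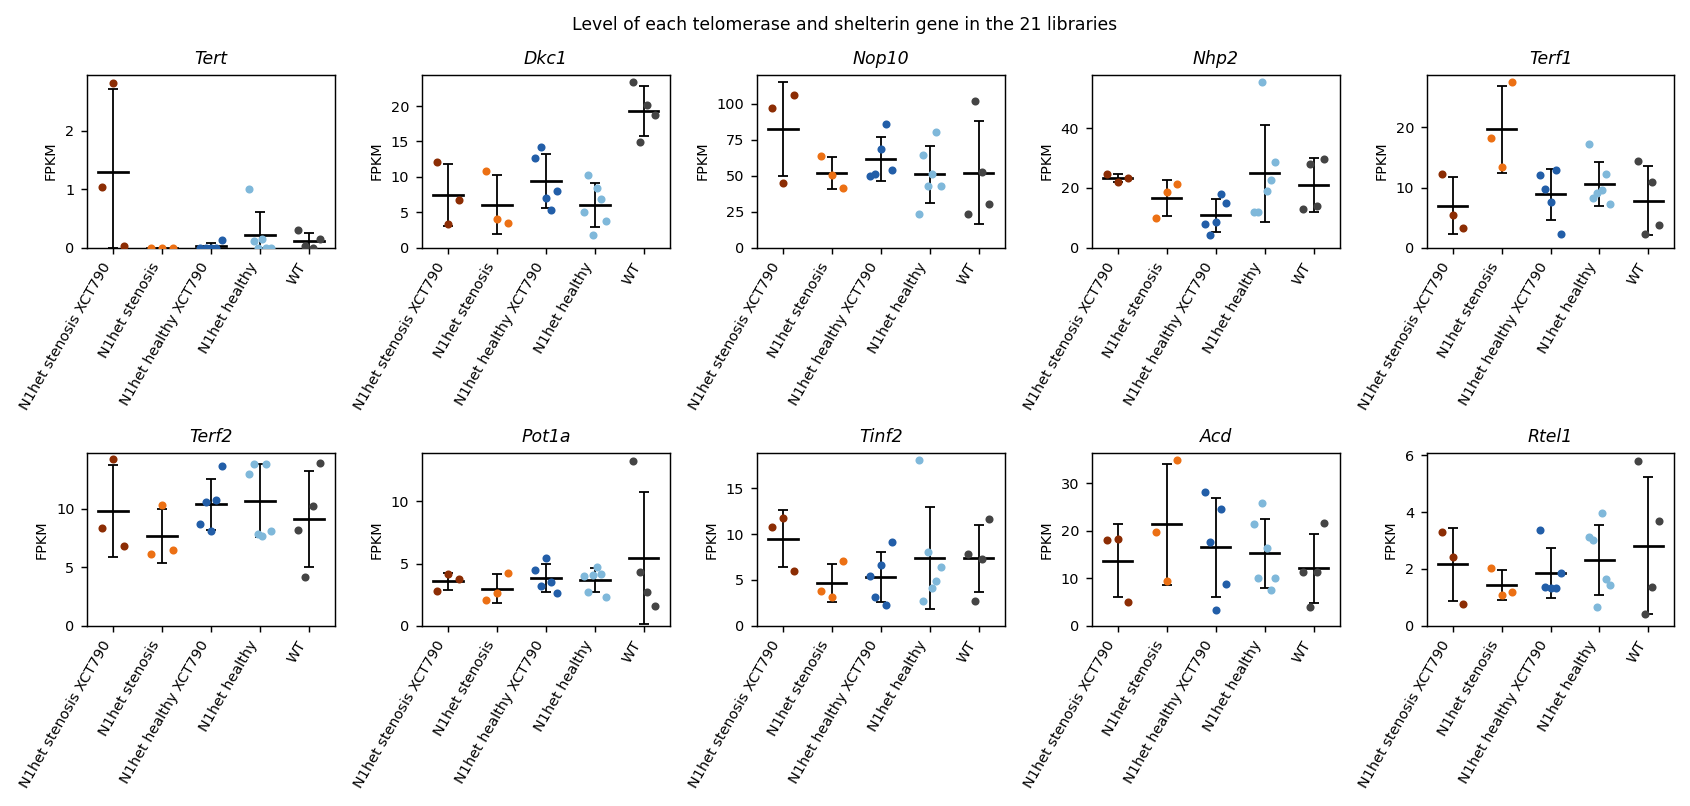
FPKM of the 10 genes, 1 panel each with its own vertical axis from 0; points are libraries, bars the group mean and whiskers 1 SD (cut at 0 where they would pass below it), with groups from N1het stenosis XCT790 on the left to WT on the right. In the Dkc1 panel all 4 WT libraries lie above all 17 N1het libraries, and in the Tert panel most libraries lie at or near 0.

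Dkc1 was the 1 gene of the 9 tested whose N1het libraries all lay below all WT libraries. The H/ACA core has dyskerin as its enzyme, and mutations of its human gene cause dyskeratosis congenita, a telomere disorder. Dkc1 had 12.1, 3.37 and 6.72 FPKM in N1het stenosis XCT790 valves, and 10.8, 3.99 and 3.43 FPKM in N1het stenosis valves. In N1het healthy XCT790 valves it had 12.7, 14.2, 6.95, 5.29 and 7.98 FPKM, and in N1het healthy valves a lowest value of 1.78, a median of 5.92 and a highest of 10.3 FPKM. WT valves had 23.4, 14.9, 20.2 and 18.7 FPKM. The highest N1het value, 14.2 FPKM, lay just under the lowest WT value, 14.9 FPKM, so the gap was narrow at its edge and wide at the centre. These values rest on 82 to 2050 reads per library.

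Dkc1 averaged 6.01 ± 3.13 FPKM in N1het healthy and 19.3 ± 3.51 FPKM in WT valves (SD, n = 6 and 4). The log2(FPKM + 1) difference was -1.66 ± 0.41 (SE; 95% interval by limma's moderated t -2.50 to -0.81) with an unadjusted p of 0.000521, rank 18 of 14966 genes. It did not pass the test across all genes (limma with Benjamini-Hochberg adjustment, adjusted p = 0.409). In that comparison limma called 0 of 14966 genes (0%) and 0 of the 9 tested telomere genes, while 1111 genes (7.42%) had an unadjusted p under 0.05; limma's voom on the recovered reads also called 0 of the 9. Of all tested genes, 44 (0.294%) were lower in every N1het healthy than in every WT library, and 6 (0.0401%) were lower in all 17 N1het than in all 4 WT libraries. Dkc1 is among both. In the authors' deposited table Dkc1 is marked as changed between N1het healthy and WT valves, as 139 of 20872 genes are (0.666%). None of the 10 is marked there between N1het stenosis and WT (1.35% of genes marked) or between N1het stenosis and N1het healthy (1.26%), and none of the other 9 in any comparison. For XCT790 against solvent, 0.125% of genes are marked in healthy and 0.268% in stenotic valves. In valve tissue as a whole, fewer cells of a type and less RNA per cell cannot be told apart.

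Dkc1 averaged 6.09 ± 4.13 FPKM in N1het stenosis and 6.01 ± 3.13 FPKM in N1het healthy valves (SD, n = 3 and 6). The difference of N1het stenosis from WT was -1.65 ± 0.48 (SE; unadjusted p = 0.00248, limma adjusted p = 0.25), where 5 genes (0.0334%) were called and 532 genes (3.55%) were lower in every N1het stenosis than in every WT library. Averaged over the 4 N1het groups, a comparison added after the values were seen, Dkc1 differed from WT by -1.43 ± 0.35 (SE; unadjusted p = 0.000551, limma adjusted p = 0.205), with 3 genes (0.0200%) called, all higher, and 1512 genes (10.1%) at an unadjusted p under 0.05. These 3 comparisons share the 4 WT libraries and are not separate evidence. Between N1het stenosis and N1het healthy the Dkc1 difference was 0.01 ± 0.45 (SE; 95% interval -0.92 to 0.93), which leaves a wide range of sizes in either direction.

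Without the deeper libraries the Dkc1 gap was of the same size. The N1het healthy minus WT difference was -1.69 in the 15 other libraries and -1.68 with membership of the 6 deepest as a covariate. In the 6 deepest libraries themselves, N1het healthy 1 and 4 had 5.01 and 8.47 FPKM, against 23.4 FPKM in WT 1. With the heart muscle markers as a covariate the difference was -1.64, and leaving out 1 library at a time gave -1.82 to -1.42. Smooth muscle markers, all 4 listed, moved with the same comparison by value. They summed to 61.5 to 747.9 FPKM (median 177.9) in N1het healthy and 151.6 to 3319.8 FPKM (median 398.5) in WT valves, with Cnn1 at 0 in 1 of the 21 libraries. Myh11, the myosin heavy chain of smooth muscle, differed by -3.30 ± 1.66 (SE; unadjusted p = 0.0621, limma adjusted p = 0.689). The mean log2(FPKM + 1) of the 4 markers was 3.31, 4.51, 6.26 and 8.99 in WT 1 to 4, and 2.51 to 6.63 in N1het healthy libraries. Their part in the Dkc1 difference was not tested.

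**Figure D3:**
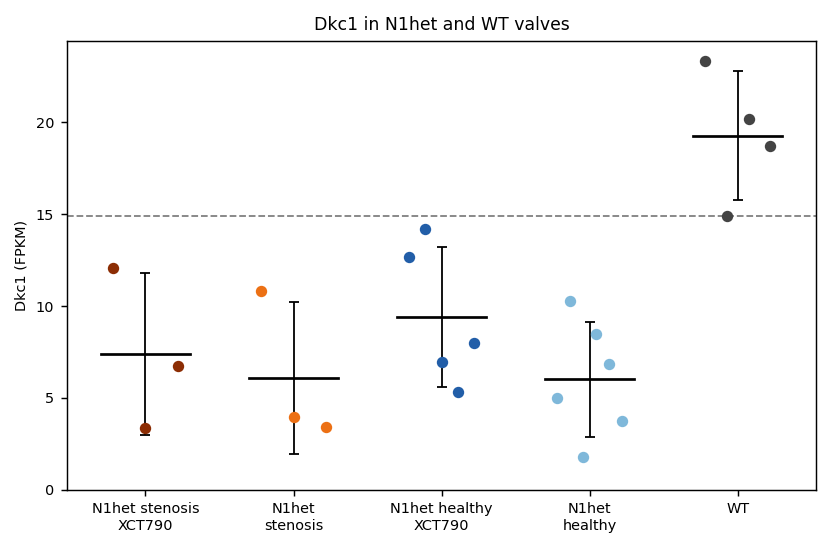
Dkc1 level in FPKM by group, from N1het stenosis XCT790 on the left to WT on the right; points are libraries, bars the group mean and whiskers 1 SD, and the dashed line marks the lowest WT library at 14.9 FPKM. All 17 N1het points lie below the line, the nearest at 14.2 FPKM in N1het healthy XCT790.

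The 300 bases around the start of Dkc1 are given because Dkc1 carries the widest difference of the set from WT, and those of Tert because its RNA was at or near 0 in most valves. They run from 250 bases before to 50 after the start in the RefSeq annotation of GRCm38.p6, 5′ to 3′ on the gene's strand, at chrX:75095604-75095903 on the plus strand for Dkc1 and chr13:73626661-73626960 on the plus strand for Tert. Capitals mark matches on either strand to 4 motifs, the E-box CACGTG, the GC box GGGCGG, the CCAAT box and TATAAA, and were placed by letters alone. No expression value here tests these letters.

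Dkc1: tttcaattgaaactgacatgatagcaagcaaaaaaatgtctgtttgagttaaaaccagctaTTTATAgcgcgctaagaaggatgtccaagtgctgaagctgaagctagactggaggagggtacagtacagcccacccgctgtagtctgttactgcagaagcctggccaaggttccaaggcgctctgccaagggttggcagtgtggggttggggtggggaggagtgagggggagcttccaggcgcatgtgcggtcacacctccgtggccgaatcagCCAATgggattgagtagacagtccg
Tert: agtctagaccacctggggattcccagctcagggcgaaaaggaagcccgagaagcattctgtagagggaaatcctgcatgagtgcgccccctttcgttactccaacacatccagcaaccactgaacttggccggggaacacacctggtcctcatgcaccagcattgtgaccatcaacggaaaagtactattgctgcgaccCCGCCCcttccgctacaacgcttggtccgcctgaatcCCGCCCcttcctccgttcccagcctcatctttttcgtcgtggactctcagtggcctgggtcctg

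The Dkc1 window holds 1 CCAAT box and 1 TATAAA on the minus strand, and the Tert window holds 2 GC boxes on the minus strand. Of 32851 mouse promoter windows of this length, 35.7% hold a GC box, 37.4% a CCAAT box, 13.6% TATAAA and 7.15% the E-box. Windows were found for 9 of the 10 genes, Terf1 being the exception. Of these 9, the GC box is in 5 (Tert, Nhp2, Terf2, Pot1a and Rtel1), the CCAAT box in 5 (Dkc1, Nop10, Nhp2, Terf2 and Acd), TATAAA in 1 (Dkc1) and the E-box in 0. The Tinf2 window holds none of the 4. In Nhp2 a pair of the CCAAT matches overlaps.

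Nop10 and Nhp2 are the partners of Dkc1 in the H/ACA core. Nop10 averaged 50.8 ± 19.5 FPKM in N1het healthy and 52.0 ± 35.6 FPKM in WT valves (SD, n = 6 and 4), a log2 difference of 0.10 ± 0.36 (SE; 95% interval -0.65 to 0.85; limma adjusted p = 0.966). Nhp2 averaged 24.9 ± 16.3 FPKM in N1het healthy and 21.1 ± 9.06 FPKM in WT valves, a difference of 0.12 ± 0.41 (SE; 95% interval -0.72 to 0.97; limma adjusted p = 0.964). The ranges of N1het healthy and WT libraries overlap for both genes. Whether the Dkc1 difference exceeds those of its partners was not tested.

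XCT790 was compared with solvent separately in healthy and in stenotic N1het valves. In healthy valves the widest difference of the set was that of Nhp2. Nhp2 had 8.01, 4.29, 8.64, 18.1 and 14.8 FPKM in N1het healthy XCT790 valves, against a lowest of 11.8, a median of 20.9 and a highest of 55.5 FPKM in N1het healthy valves. Of the XCT790 libraries, 3 lay below all 6 solvent libraries and the other 2 within their range. The difference was -1.08 ± 0.38 (SE; unadjusted p = 0.0098, limma adjusted p = 1), and limma called 0 of 14966 genes (0%) and 0 of the 9, with 397 genes (2.65%) at an unadjusted p under 0.05. Grouped by the contradicting agent field instead of the titles, the Nhp2 difference turned to 0.14. Without N1het healthy 3, the library at 55.5 FPKM, it was -0.81. N1het healthy XCT790 1 and 2, at 8.01 and 4.29 FPKM, are among the 6 deepest libraries. Against log2 reads over the 21 libraries Nhp2 had Pearson's r = -0.52 (permutation p = 0.0144, adjusted p = 0.144 over 30 relations of 10 genes with 3 measures) and Spearman's rho = -0.52 (permutation p = 0.0154, adjusted p = 0.105). Without the 2 farthest libraries r was -0.55, and among the 15 outside the deepest it was -0.34. None of the 30 relations passed the correction, and the part of depth in the Nhp2 difference was not tested.

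In stenotic valves Nhp2 went the other way by value, and the interaction was tested. It had 24.6, 22.03 and 23.3 FPKM in N1het stenosis XCT790 valves, against 9.79, 18.6 and 21.3 FPKM in N1het stenosis valves. The 3 XCT790 libraries lay above the 3 solvent libraries without overlap, as did those of 911 of 14966 genes (6.09%). The difference was 0.53 ± 0.51 (SE; unadjusted p = 0.311, limma adjusted p = 1). The interaction of XCT790 with stenosis was 1.61 ± 0.64 for Nhp2 (SE; unadjusted p = 0.0196, limma adjusted p = 1), where limma called 0 genes (0%) and 446 genes (2.98%) had an unadjusted p under 0.05.

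Tert was barely covered. It had 0 reads in 11 of the 21 libraries, 1 read in 2 and more than 3 reads in 8. N1het stenosis XCT790 1, 2 and 3 had 68, 212 and 1 reads, or 1.03, 2.83 and 0.0240 FPKM. The 3 N1het stenosis libraries had 0 reads each, which allows up to 0.0469, 0.0799 and 0.0780 FPKM at a limit of 3 reads. Only N1het healthy XCT790 5, with 6 reads (0.123 FPKM), had any among the 5 libraries of its group. In N1het healthy valves replicates 1, 2 and 4 had 80, 7 and 17 reads (1.01, 0.111 and 0.147 FPKM) and the other 3 had 0. WT 1 to 4 had 28, 1, 0 and 5 reads, or 0.307, 0.0220, 0 and 0.140 FPKM.

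Libraries with any Tert read came from every group but N1het stenosis, at depths of 8.42 to 27.3 M reads. Counts of 17 or more lay in deeper libraries. Outside the 6 deepest only N1het stenosis XCT790 1, at 15.5 M reads, had so many. Against log2 reads Tert had Pearson's r = 0.31 over 21 libraries (permutation p = 0.178, adjusted p = 0.593 over 30 relations). Of the 6 deepest, 4 had 17 or more Tert reads, and N1het healthy XCT790 1 and 2 had 0 at 24.8 and 22.4 M reads, which allows up to 0.0285 and 0.0316 FPKM. Amplified copies of 1 molecule cannot be recognised in these reads, so the limits cover counting error only. In a fit over all 20872 genes with no filter, added after the values were seen, the N1het stenosis XCT790 minus N1het stenosis difference was 1.00 ± 0.33 on the log2(FPKM + 1) scale (SE; unadjusted p = 0.00677, limma adjusted p = 1), a size that depends on the added 1. Without N1het stenosis XCT790 3, the library with 1 read, it was 1.48 and passed the test (limma adjusted p = 0.0488); without N1het stenosis XCT790 2 it was 0.53.

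**Figure D4:**
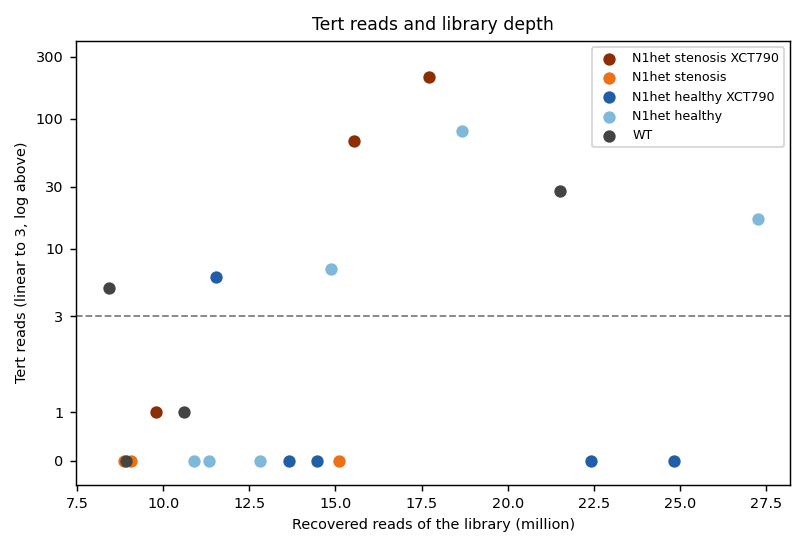
Tert reads (vertical axis, linear to 3 reads and logarithmic above) against the recovered reads of each library in M reads; 1 point per library coloured by group, with a dashed line at 3 reads. The highest point is N1het stenosis XCT790 2 with 212 reads, followed by N1het healthy 1 and then by N1het stenosis XCT790 1 with 68 reads. N1het healthy XCT790 libraries at 22.4 M reads and more lie at 0.

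Among the shelterin genes Terf1 had the widest differences, and they were in N1het stenosis. Terf1 binds the double-stranded repeats and is known to restrain telomere lengthening. It had 12.3, 5.43 and 3.20 FPKM in N1het stenosis XCT790 valves, against 18.2, 13.3 and 27.5 FPKM in N1het stenosis valves. The groups do not overlap, as is so in the lower direction for 398 of 14966 genes (2.66%), although 12.3 and 13.3 FPKM nearly meet. The difference was -1.49 ± 0.58 (SE; unadjusted p = 0.0185, limma adjusted p = 1). In that comparison limma called 0 of 14966 genes (0%) and 0 of the 9, with 501 genes (3.35%) at an unadjusted p under 0.05. By the agent field all 6 of these libraries carry XCT790, so this comparison rests on the titles.

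Terf1 in N1het stenosis also stood above the healthy groups by value. It had a lowest of 7.27, a median of 9.33 and a highest of 17.2 FPKM in N1het healthy valves, and the difference of N1het stenosis from them was 0.83 ± 0.50 (SE; unadjusted p = 0.115, limma adjusted p = 0.656). There limma called 5 genes (0.0334%) and 0 of the 9, and 1437 genes (9.60%) but 0 of the 9 had an unadjusted p under 0.05. WT valves had 14.4, 2.25, 10.8 and 3.79 FPKM, and the difference of N1het stenosis from WT was 1.45 ± 0.55 (SE; unadjusted p = 0.0147, limma adjusted p = 0.368). The lowest N1het stenosis library, at 13.3 FPKM, lay within the WT range. Leukocyte and interstitial markers moved with stenosis, in opposite directions, as given above. Proliferation markers, all 6 listed, summed to 31.1 to 42.4 FPKM in N1het stenosis, against 12.4 to 23.2 FPKM in N1het stenosis XCT790 valves. They summed to 12.8 to 30.9 FPKM in N1het healthy XCT790, 10 to 26.2 FPKM in N1het healthy and 10.2 to 37.5 FPKM in WT valves. Of these, Bub1 was at 0 in 4 libraries and Ccnb1 and Cdc20 at 0 in 3. Their part in the Terf1 values was not tested.

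Terf2, the protein that holds the telomere loop closed, had the steadiest level of the set. It averaged 7.68 ± 2.33 FPKM in N1het stenosis and 10.7 ± 3.12 FPKM in N1het healthy valves (SD, n = 3 and 6), a difference of -0.42 ± 0.34 (SE; 95% interval -1.12 to 0.28; limma adjusted p = 0.76). Terf2 ran from 7.71 to 13.9 FPKM in N1het healthy and 4.14 to 13.9 FPKM in WT valves. Those ranges overlap almost wholly, with a difference of 0.27 ± 0.31 (SE; limma adjusted p = 0.884). Against the mean log2 level of the heart muscle markers Terf2 had Pearson's r = 0.58 over 21 libraries (permutation p = 0.00618, adjusted p = 0.0927 over 30 relations) and Spearman's rho = 0.53 (permutation p = 0.0146, adjusted p = 0.105), which did not pass. Without the 2 farthest libraries r was 0.55, and among the 15 outside the deepest it was 0.77. Averaged over both agents, the stenosis minus healthy difference of the 9 genes ran from -0.27 for Terf2 to 0.38 for Nhp2, with a median of 0.14, beside 0 for all tested genes. In that comparison 56 genes (0.374%) were called and 0 of the 9, and 1721 genes (11.5%) had an unadjusted p under 0.05, also 0 of the 9.

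Acd, Tinf2 and Pot1a complete the shelterin genes measured here, with Rtel1 beside them. Acd had 18.1, 18.2 and 4.97 FPKM in N1het stenosis XCT790 and 19.7, 9.55 and 34.9 FPKM in N1het stenosis valves, a wide overlap. Tinf2 had 10.8, 11.8 and 5.99 FPKM in N1het stenosis XCT790, against 3.85, 3.18 and 7.08 FPKM in N1het stenosis valves, a difference of 0.89 ± 0.56 (SE; limma adjusted p = 1). For both genes reads may be shared with a neighbour, because no source used here states the strand setting of the counting. Exons of Carmil2, on the opposite strand, overlap 33.3% of the Acd exons in the GENCODE annotation, and Carmil2, listed as Rltpr, had a mean of 0.438 FPKM. Exons of Gmpr2 overlap 31.2% of the Tinf2 exons, and Gmpr2 had a mean of 16.5 FPKM, above the 6.81 FPKM of Tinf2. These shares are of 3625 exonic bases for Acd and 4938 for Tinf2 in that annotation. The FPKM steps imply counted lengths of 1501 and 2304 bases, so the overlap of the counted exons is not known. What part of the Tinf2 reads comes from Gmpr2 was not tested.

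Apart from WT 1, the Pot1a libraries of all groups overlapped. The mean was 3.68 ± 0.935 FPKM in N1het healthy and 5.49 ± 5.30 FPKM in WT valves (SD, n = 6 and 4), a difference of -0.18 ± 0.39 (SE; limma adjusted p = 0.944). Mice have a second gene of this kind, Pot1b, which averaged 4.84 FPKM. No window of 50 bases in Pot1a is shared with another annotated gene, and 1.88% of the Pot1b windows are. Rtel1 averaged 2.31 ± 1.24 FPKM in N1het healthy and 2.82 ± 2.42 FPKM in WT valves, a difference of -0.05 ± 0.44 (SE; limma adjusted p = 0.99). Rtel1 rested on 30 to 827 reads. Its relation to depth did not pass the correction, with Pearson's r = 0.59 (permutation p = 0.00473, adjusted p = 0.0927 over 30 relations) and Spearman's rho = 0.59 (permutation p = 0.00543, adjusted p = 0.105) against log2 reads over 21 libraries. Without the 2 farthest libraries r was 0.49, and among the 15 libraries outside the deepest 6 it was 0.30.

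**Figure D5:**
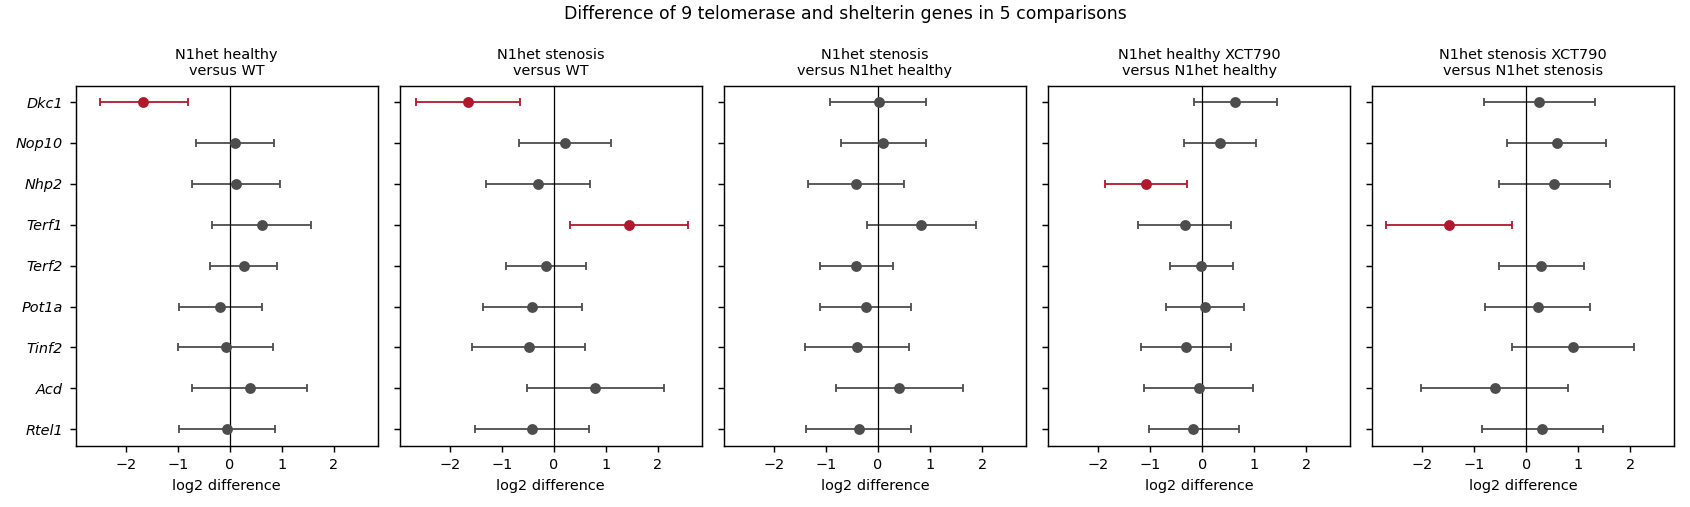
Log2(FPKM + 1) difference of each tested gene (rows) in 5 comparisons (panels, with the first-named group minus the other); points are limma estimates, whiskers 95% intervals by limma's moderated t, and red marks an unadjusted p under 0.05. None passed at an adjusted p under 0.05. Dkc1 lies left of 0 in both comparisons with WT, and most other intervals cross 0.

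No member passed the test in any of the 8 comparisons, where 0% to 0.374% of all tested genes did, and their directions were mixed. In N1het healthy against WT valves 5 of the 9 were higher and 4 lower, with a median difference of 0.10 on the log2 scale, beside 0.09 for all tested genes. In N1het stenosis against N1het healthy 4 were higher and 5 lower (median -0.24, beside -0.04 for all), and against WT 3 were higher and 6 lower (median -0.30, beside 0.06 for all), where 2 of the 9, Dkc1 and Terf1, had an unadjusted p under 0.05 beside 10.4% of all genes. With XCT790 3 were higher and 6 lower in healthy N1het valves (median -0.06, beside 0.03 for all), and 7 were higher and 2 lower in stenotic ones (median 0.29, beside 0.09 for all). Apart from Dkc1, each member's N1het healthy minus WT difference lay within 0.62 of 0.

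The wider telomere machinery was examined through 37 further listed genes, of which 35 were tested. None was called in any of the 8 comparisons, nor was any of them marked in the authors' deposited table. Of all tested genes limma called 0% to 0.374% by comparison, and the authors' marks cover 0.125% to 1.35% of genes. At such shares, none among so few genes says little about them. Terf2ip, the Rap1 protein of shelterin, averaged 13.6 ± 3.95 FPKM in N1het healthy and 11.8 ± 7.78 FPKM in WT valves (SD, n = 6 and 4). The CST complex caps and fills in the lagging strand. Its genes Obfc1 (Stn1), 2310004N24Rik (Ten1) and 1500010J02Rik (Ctc1) averaged 7.71, 6.43 and 3.16 FPKM over the 21 libraries. Obfc1 was lower by value in N1het stenosis, at 3.15 ± 1.69 FPKM against 8.02 ± 1.90 FPKM in N1het healthy valves (SD, n = 3 and 6), a difference of -1.17 ± 0.39 (SE; unadjusted p = 0.0067, limma adjusted p = 0.309). With XCT790 it averaged 8.02 ± 2.20 FPKM in stenotic valves, 1.17 ± 0.45 above N1het stenosis (SE; unadjusted p = 0.0167, limma adjusted p = 1). Both differences rest on the same 3 N1het stenosis libraries.

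Other genes of the list were named by their level or their p. The highest of each group were Ercc1, a nuclease subunit, at 22.4 FPKM, Tnks2, a poly-ADP-ribosyltransferase of the tankyrase kind, at 27.4 FPKM, Ruvbl1, an ATPase of telomerase assembly, at 15.6 FPKM, and Nhp2l1, a box C/D and spliceosome protein, at 48.6 FPKM. Ruvbl1 had the smallest p of the wider list in both comparisons with WT. It was 1.16 ± 0.34 higher in N1het healthy than in WT valves (SE; unadjusted p = 0.00261, limma adjusted p = 0.428) and 1.41 ± 0.40 higher in N1het stenosis than in WT valves (SE; unadjusted p = 0.00211, limma adjusted p = 0.239). Gar1, the fourth protein of the mature H/ACA particle, differed by -0.74 ± 0.32 with XCT790 in healthy N1het valves (SE; unadjusted p = 0.0302, limma adjusted p = 1) and by -0.74 ± 0.37 between N1het stenosis and N1het healthy valves (SE; unadjusted p = 0.0595, limma adjusted p = 0.543). Its interaction of XCT790 with stenosis was 1.70 ± 0.54 (SE; unadjusted p = 0.00457, limma adjusted p = 1). Shq1, an assembly chaperone of dyskerin, was 1.92 ± 0.71 higher with XCT790 in stenotic valves (SE; unadjusted p = 0.0137, limma adjusted p = 1), with an interaction of 2.29 ± 0.89, but had a median of 12 reads a library. Averaged over agents, Obfc1 was -0.66 ± 0.28 (SE) from healthy in stenotic valves and Fbl, the box C/D methyltransferase, 0.51 ± 0.25 (SE), with limma adjusted p of 0.346 and 0.458.

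The genes most like each member over the 21 libraries were named by Pearson's r of log2(FPKM + 1) among 9655 genes with a mean of 5 FPKM or more, as a description with no test. Dkc1 was closest to Bmpr2, a receptor of bone morphogenetic proteins, at r = 0.72 and to Gnptab at 0.69. Nop10 was closest to Mrpl32, a mitochondrial ribosomal protein, at 0.84 and to Cyb5 at 0.77, and Nhp2 to Slc35a1 and Rbm15 at 0.68 each. Of the shelterin genes, Terf1 was closest to Phf20 at 0.75 and Plekhg2 at 0.73, Terf2 to Rabgap1 at 0.76 and Wdr33 at 0.71, Pot1a to Sall2 at 0.80 and Tlr3 at 0.79, Tinf2 to Ano1 and Nynrin at 0.71 each, and Acd to Mllt10 at 0.77 and Rrn3 at 0.74. Rtel1 was closest to Rnf187 at 0.78 and Spats2l at 0.77. Each r is among the highest of 9655 and so is large by selection. For Pot1a, in which WT 1 stood alone, r without that library was not computed. No member was among the closest of another. Over the 36 pairs of tested members, the largest Pearson correlation was that of Terf1 and Acd, at r = 0.56 (permutation p = 0.0092, adjusted p = 0.21) and rho = 0.48 (permutation p = 0.0301, adjusted p = 0.361), with r = 0.43 without the 2 farthest libraries. Nop10 and Tinf2 ran against each other to a like size, at r = -0.54 (permutation p = 0.0123, adjusted p = 0.21) and rho = -0.52 (permutation p = 0.0187, adjusted p = 0.336). None of the 36 pairs passed the correction.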

How the data were processed

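Per the labels' protocols, RNA came from whole valves (RNeasy Micro kit) and was amplified with the Ovation system V2 of NuGEN. FastQC, HISAT2, SAMtools, Picard and the build mm9 stand in the submitters' processing notes; which program counted reads, with which annotation, versions and strand setting, is not stated there. The authors deposited FPKM per gene and library, per the file headers, with group means of their own and marks of 0 or 1 (a score) for changed genes by an unstated test. Replicates are not said to be different animals, and p-values then cover only the variation among these samples, which may be technical.

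Whole reads were recovered from the FPKM steps (100% of nonzero values whole within 0.01 reads). Differences were tested with limma 3.58.1 (R 4.3.3) on log2(FPKM + 1) over all 21 libraries as 5 group means. A gene needed a mean FPKM of 1, which 14966 reached and 5906 did not. P-values were adjusted by Benjamini-Hochberg over all genes of a comparison, with a threshold of 0.05. On simulated data with 14966 genes the comparison of N1het healthy with WT found 17.9% of changes of 2-fold, 50.7% at 4-fold and 81.8% at 8-fold, and made 9 false calls. These folds are of FPKM + 1, so at low levels the fold of FPKM itself is larger. The simulated noise was normal and independent between genes and libraries, unlike libraries that differ in depth or cell types. The members, the wider lists and the naming rule were chosen with earlier results of these data known, and the averaged comparison of N1het with WT after their values were seen. Named beyond the members were Notch1, the wider list's capping genes, the highest gene of each of its groups, the 2 listed genes with the smallest p in each comparison, and the 2 genes of highest r to each member. Genes with older symbols were matched by Ensembl identifier. Alternatives covered the pseudocount, the filter, scaling, the samples fitted, a replicate block, the agent field, depth, heart muscle markers, voom, the threshold and each library left out. A marker listed at first for leukocytes was left out and is not reported here.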

Additional observations from a re-analysis of the deposited data

Results flagged for a closer look

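In 30 groups of 4 to 6 libraries and 10 genes, 2 had a library that stood apart from the rest of its group, where chance flags about 1 in 20 groups. Both were Tert, whose other libraries lay at or near 0. N1het healthy 1 had the highest Tert level of its 6 libraries, 1.011 FPKM from 80 reads. N1het healthy XCT790 5 had 0.123 FPKM from 6 reads, and the 4 other libraries of that group had 0.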

How the results depend on the processing

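None of the 9 tested members was called under any alternative or with any library left out (Tert, below the filter, passed in 1 fit given above), and the number of neighbours that differ in the order of levels was 5 throughout. The Dkc1 difference of N1het healthy from WT ran from -1.85 (pseudocount 0.1) to -1.29 (without the 3 libraries least like the rest, WT 1, WT 4 and N1het healthy 3, an alternative added after the data were seen), and by the agent field it was -1.36. Replicate numbers did not pair libraries: over 34 same-numbered pairs the correlation of deviations from group means was -0.11 to 0.13, and 3 of 21 libraries correlated best with their own number.

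The number of all genes called was less stable. With a replicate block it was 19 for N1het stenosis against N1het healthy (5 without the block), 3 against WT (5 without), 97 averaged over agents (56 without) and 0 for N1het against WT averaged (3 without), and the Dkc1 difference was -1.58 for N1het healthy against WT and turned to -0.08 for N1het stenosis against N1het healthy. For N1het stenosis against N1het healthy it was 14 with only the compared groups, 0 outside the 6 deepest libraries, 0 with voom, 8 at an adjusted p under 0.1 and 16 without the 3 least alike libraries. For N1het stenosis against WT it was 9 with median-of-ratios scaling, 0 with only the compared groups, 0 with depth as a covariate, 0 outside the deepest, 0 with heart muscle markers as a covariate, 3 with voom, 11 at an adjusted p under 0.1 and 1 without the 3. For stenosis averaged over agents it was 0 outside the deepest, 148 at an adjusted p under 0.1 and 91 without the 3. For N1het against WT averaged it was 11 with pseudocount 0.1, 9 with depth as a covariate, 12 at an adjusted p under 0.1, and 0 with no filter, with median-of-ratios scaling, outside the deepest, with heart muscle markers, with voom and without the 3. It was 2 for XCT790 in stenotic valves with no filter, and 1 by the agent field for N1het healthy against WT and for XCT790 in healthy valves; other comparisons could not be formed by that field. The cause was not tested.

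With 1 library left out, the number called was 0 to 5 for N1het healthy against WT (5 without WT 3), 2 to 11 for N1het stenosis against N1het healthy (11 without N1het healthy 6, 2 without N1het healthy 1, N1het stenosis 2 or N1het stenosis 3), 0 to 3 for N1het stenosis against WT, 0 to 2 for XCT790 in stenotic valves, 0 to 2 for the interaction (2 in both without N1het stenosis XCT790 3), 2 to 78 for stenosis averaged over agents (2 without N1het stenosis 3), 0 to 15 for N1het against WT averaged (15 without WT 3), and 0 for XCT790 in healthy valves. Dkc1 differences near 0 turned sign. For N1het stenosis against N1het healthy (0.01) it was 0 with heart muscle markers as a covariate and -0.23 without the 3, and -0.44 to 0.27 with 1 library left out. For stenosis averaged over agents (-0.18) it was 0.26 outside the deepest and -0.40 to 0.02 with 1 left out. For the interaction (-0.38) it was 0.26 outside the deepest and -0.77 to 0.06 with 1 left out. For XCT790 it was -0.06 by the agent field in healthy valves (0.63 by title), and -0.14 to 0.70 with 1 left out in stenotic valves. The Nhp2 difference with XCT790 in healthy valves was 0.14 by the agent field.

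At 3 to 6 libraries a group and 8.42 to 27.3 M reads, the 95% interval of a tested member's difference was 1.01 wide on the log2 scale at the narrowest (Terf2, stenosis averaged over agents) and 3.50 at the widest (Acd, interaction), and Tert levels under the limit of 3 reads, 0.0260 to 0.0841 FPKM by library, were not detectable. The 6 deepest libraries hold no N1het stenosis library, so depth and that group cannot be fully told apart.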
